A study of Homo sapiens with 6 samples.

Results

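Microtubule-associated proteins are cytoskeletal proteins that bind tubulin or the microtubule polymer, and 10 of their genes were examined in MCF-10A cells that overexpress the polarity protein CRB3. They were MAP1A, MAP1B, MAP1S, MAP2, MAP4, MAPT, MAP7, MAP9, STMN1 and MAPRE3, 10 of the 19775 genes that the arrays could be read for. The family was chosen by name, with earlier results of these data known. MAP2 was chosen on its rise in the comparison described here, so its values are given as a description without a test. All probe sets annotated to exactly 1 of these genes were taken, 35 in total, and 1 further probe set of STMN1 that is shared with a microRNA gene was read separately.

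MCF-10A is a line of human mammary epithelial cells that is immortal but not transformed. Cells of this line were infected with a retrovirus carrying Crb3, encoding myc-tagged human CRB3 according to the methods of the study, or with the empty pNG vector. Both groups were selected with puromycin, kept in the usual MCF-10 growth medium and harvested as growing monolayers at 70% confluence. RNA of 3 samples per group was hybridized to Affymetrix U133 Plus 2.0 arrays, 1 array per sample. The lines were stable infected populations, and no source used here ties the array replicates to separate infections. The p-values therefore cover only the spread among these 6 samples, which may be technical.

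Structural microtubule-associated proteins such as MAP2, MAPT (tau) and MAP4 bind along the microtubule lattice through related repeats and stabilize it. MAP2 is the classical protein of neuronal dendrites and tau that of axons, whereas MAP4 is the broadly expressed relative found in epithelial and other dividing cells. Others act in a different way: stathmin (STMN1) binds free tubulin and favours disassembly, and MAPRE3 (EB3) rides on growing plus ends. In polarized epithelial cells most microtubules run along the apico-basal axis rather than from a central organizer, and MAP7 is an epithelial protein that recruits kinesin-1 to them.

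The CRB3 probe set checked the labels, with log2 values of 12.00 to 12.19 in CRB3-expressing cells and 7.59 to 7.90 in vector control cells. Mammary epithelial markers were present in both groups, with KRT5, named after its values were seen, at a mean log2 value of 13.58 with CRB3 and 13.62 with the vector. Array medians lay between 5.84 and 5.88. The hybridization controls of vector control replicate 1 averaged 11.33 on the log2 scale, against 10.89 to 11.08 on the other arrays. Throughout, levels are deposited log2 values, a difference is CRB3-expressing minus vector control on that scale, and a probe set was called at an adjusted p under 0.05 from limma over all probe sets together with a fold change above 1.5. A level under 6 was treated as dim, and the files hold no detection calls.

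The annotated start sites of the members whose probe sets were called, MAP2 and MAP1B, are shown first, because both had higher values in CRB3-expressing cells and their start regions differ in base composition. RefSeq (GRCh38.p14) gave 20 windows of 300 bases, 250 before and 50 after a start, for 9 of the 10 members. Shown are 2 of the 3 windows of MAP2, its middle and downstream starts (plus strand, chromosome 2, chr2:209579357-209579656 and chr2:209661246-209661545) and 1 of MAP1B (plus strand, chr5:72107225-72107524). The farthest upstream MAP2 window, chr2:209579082-209579381, overlaps the middle one and is not printed. Capitals mark GC boxes (GGGCGG) and TATA boxes (TATAAA), searched on both strands.
MAP2, middle start: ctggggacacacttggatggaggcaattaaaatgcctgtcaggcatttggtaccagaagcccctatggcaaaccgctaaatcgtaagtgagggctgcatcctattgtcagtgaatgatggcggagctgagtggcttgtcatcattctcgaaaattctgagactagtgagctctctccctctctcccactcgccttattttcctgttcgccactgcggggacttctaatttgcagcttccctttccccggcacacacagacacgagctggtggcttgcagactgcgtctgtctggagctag
MAP2, downstream start: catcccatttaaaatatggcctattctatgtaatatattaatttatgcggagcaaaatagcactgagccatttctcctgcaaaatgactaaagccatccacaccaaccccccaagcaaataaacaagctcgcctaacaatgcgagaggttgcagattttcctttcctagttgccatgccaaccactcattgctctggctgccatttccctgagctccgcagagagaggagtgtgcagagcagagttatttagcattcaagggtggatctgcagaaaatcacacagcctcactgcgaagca
MAP1B, upstream start: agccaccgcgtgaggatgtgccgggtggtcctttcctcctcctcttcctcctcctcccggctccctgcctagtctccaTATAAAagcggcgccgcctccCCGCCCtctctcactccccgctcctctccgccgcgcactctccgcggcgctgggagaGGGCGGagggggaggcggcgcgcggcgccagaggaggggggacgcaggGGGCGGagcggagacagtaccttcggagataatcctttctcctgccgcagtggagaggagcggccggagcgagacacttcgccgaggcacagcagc

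None of the 3 MAP2 windows held a GC box, and their GC contents were 40.0%, 52.3% and 45.3% from the farthest upstream to the downstream start. The MAP1B window shown held 3 GC boxes and 1 TATA box in 70.0% GC, and the second MAP1B window held 2 GC boxes and 1 TATA box in 57.7% GC. Of the 17 windows of members other than MAP2, 11 held a GC box, against 45.0% of the 35116 windows of all genes, where a TATA box was found in 11.5% and the median GC content was 58.7%. These matches describe the letters in the windows. The arrays do not tell which start was used in these cells.

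MAP2 had much higher values in CRB3-expressing cells in both of its probe sets. In the brighter probe set the log2 values were 8.39, 8.26 and 8.33 in CRB3-expressing cells and 5.59, 5.78 and 5.73 in vector control cells. Each CRB3-expressing array lay far above each vector control array, and the difference of 2.63 corresponds to 6.18-fold. Means were 8.33 ± 0.066 (SD, n = 3) and 5.70 ± 0.096 (SD, n = 3).

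The second MAP2 probe set showed a smaller difference at a lower level. Its log2 values were 6.54, 6.63 and 6.90 in CRB3-expressing cells and 5.43, 5.60 and 5.07 in vector control cells. The groups did not overlap here either, and the difference was 1.32, or 2.50-fold. The mean of both probe sets gave a difference of 1.98. All vector control values of MAP2 were under 6, a level that may be background, and a fold change measured from background is understated. The position of either probe set on the alternative MAP2 transcripts is not given in the sources used here.

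MAP1B, which encodes a microtubule-associated protein of growing axons that is cut into a heavy and a light chain, was the other member with a called probe set. That probe set had log2 values of 5.999, 5.62 and 5.73 in CRB3-expressing cells and 4.91, 5.11 and 4.77 in vector control cells. The lowest CRB3-expressing array lay above the highest vector control array, and the difference was 0.85 (SE 0.12, 95% interval 0.59 to 1.11, adjusted p = 0.00375 from limma), or 1.81-fold.

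The other MAP1B probe sets had differences of the same sign and were not called. The one with the highest mean had values of 5.69, 5.75 and 5.77 against 5.28, 5.31 and 5.58, a difference of 0.34 (SE 0.088, adjusted p = 0.0777 from limma). The dimmest had 4.67, 4.72 and 4.57 against 4.12, 4.39 and 4.40, a difference of 0.35 (SE 0.089, adjusted p = 0.0770 from limma). In all 3 probe sets of MAP1B the groups did not overlap, and all 3 had means under 6 in both groups. When the 3 were averaged the difference was 0.52 (adjusted p = 0.00106 from limma), under the fold threshold. The called probe set lost its call with an ordinary pooled variance (adjusted p = 0.122).

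**Figure D1:**
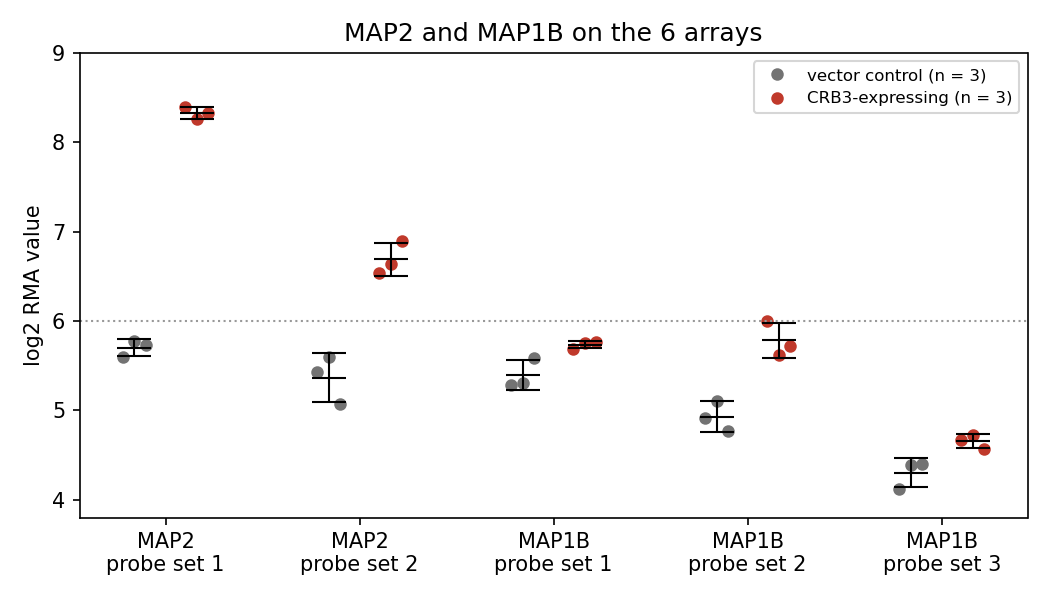
Log2 RMA value (y axis) of the probe sets of MAP2 and MAP1B (x axis, numbered from the highest mean) on 3 arrays per group, grey for vector control and red for CRB3. Each point is 1 array, black bars are the mean and SD (n = 3) and the dotted line is a log2 value of 6. MAP2 goes from 5.70 to 8.33 and from 5.37 to 6.69, while every MAP1B mean stays under 6.

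Counted by the brightest probe set of each gene, 1 of the 10 members was called higher, namely MAP2, and 0 were called lower, while 1.43% of all 19775 genes were called higher and 0.465% lower. Because MAP2 was chosen on this contrast, nothing is read from that count. By probe sets, 3 of 35 were called higher and 0 lower, against 0.948% and 0.363% of all probe sets. The 3 were both probe sets of MAP2, from which nothing is read either, and 1 of MAP1B. Without MAP2, 1 of 33 was called higher and 0 were called lower. Of the 9 members other than MAP2, none was called in its brightest probe set by limma. Without adjustment (limma p under 0.05) 2 of the 9 were higher and 1 was lower, while 10.4% of all genes were higher and 8.39% lower by that limit.

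Without MAP2, the groups did not overlap in the brightest probe set of 5 of these 9 members, with 4 higher and 1 lower in CRB3-expressing cells, while 14.5% of all genes were higher and 12.1% lower without overlap. By probe sets the groups were apart toward higher values in 7 of 33 and toward lower values in 1 of 33, against 11.1% and 10.7% of all probe sets. The median difference of the 9 members was 0.077, and that of all genes was 0.0066. The 95% interval of the difference lay within 1.5-fold in either direction (0.585 on the log2 scale) for the brightest probe set of 9 of the 9, and for 31 of their 33 probe sets. The exceptions were the called MAP1B probe set and the dimmest of MAP9.

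**Figure D2:**
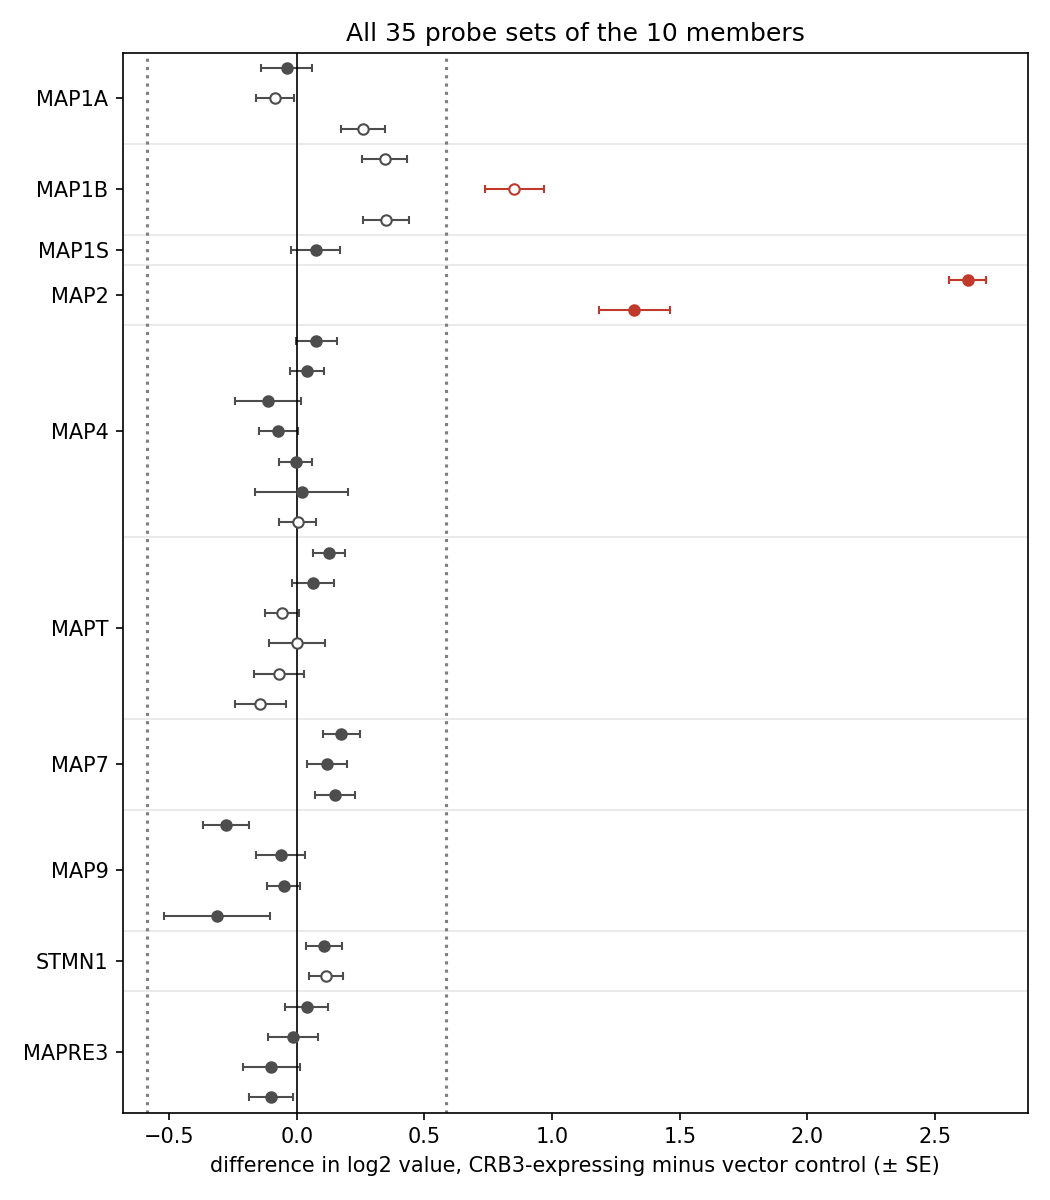
Log2 difference between CRB3-expressing and vector control means (x axis, bars are the SE from limma), of all 35 probe sets of the 10 members (y axis, within a gene from the highest mean at the top). Red marks called probe sets, open circles those with means under 6 in both groups, and dotted lines 1.5-fold. MAP2 at 2.63 and 1.32 and a MAP1B probe set at 0.85 lie to the right, and the others lie between -0.31 and 0.35.

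MAP4 and MAPT are the closest relatives of MAP2, and neither was called in any probe set. MAP4, the lattice-binding protein of most non-neuronal cells, was read by 7 probe sets. In the brightest of them the log2 values were 10.59, 10.64 and 10.73 in CRB3-expressing cells and 10.64, 10.44 and 10.65 in vector control cells. The groups overlapped, and the difference was 0.077 (SE 0.079, 95% interval -0.10 to 0.26, adjusted p = 0.697 from limma). The 7 differences of MAP4 ranged from -0.11 to 0.077.

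A probe set of MAP4 had the value 8.58 in vector control replicate 1, the array with the high hybridization controls, against 7.81 and 7.996 in the other vector control arrays. Its difference was 0.019 with all arrays and 0.24 without that one, and it was not called in either case (adjusted p = 0.974 and adjusted p = 0.428 from limma).

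MAPT, which encodes tau, had in its brightest probe set log2 values of 6.70, 6.73 and 6.77 in CRB3-expressing cells and 6.67, 6.57 and 6.58 in vector control cells. The groups were just apart, and the difference of 0.13 (SE 0.062, 95% interval -0.015 to 0.27, adjusted p = 0.367 from limma) was not called. Of its 6 probe sets, 4 were dim (under 6) in each group, and the differences of all 6 ranged from -0.14 to 0.13. 

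MAP1A and MAP1S, the other members of the MAP1 family, had no called probe set. Whether they differed from MAP1B in response was not tested. MAP1A, the form of mature neurons, had values of 5.91, 5.89 and 6.16 in CRB3-expressing cells and 6.07, 6.15 and 5.86 in vector control cells. These groups overlapped, with a difference of -0.039 (SE 0.10, 95% interval -0.27 to 0.19, adjusted p = 0.895 from limma). Its dimmest probe set had means of 4.12 and 3.86 and groups that did not overlap, with a difference of 0.26 (adjusted p = 0.175 from limma).

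MAP1S, a small and widely expressed family member that links microtubules to mitochondria and autophagy, was read by 1 probe set. Its log2 values were 8.35, 8.41 and 8.64 in CRB3-expressing cells and 8.44, 8.26 and 8.48 in vector control cells. The groups overlapped, and the difference was 0.074 (95% interval -0.14 to 0.29, adjusted p = 0.764 from limma).

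MAP7 (ensconsin), the epithelial lattice protein that activates kinesin-1, had positive differences in its 3 probe sets, none of them called. In the brightest the values were 9.14, 9.19 and 9.01 in CRB3-expressing cells and 9.01, 8.88 and 8.92 in vector control cells. The lowest CRB3-expressing value was only just above the highest vector control value, and the difference was 0.18 (SE 0.071, 95% interval 0.014 to 0.34, adjusted p = 0.266 from limma). The other differences were 0.12 and 0.15.

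MAP9, a spindle-associated protein also known as ASAP, had negative differences in all 4 of its probe sets. In the brightest the values were 8.34, 8.01 and 8.17 in CRB3-expressing cells and 8.53, 8.45 and 8.37 in vector control cells. The groups did not overlap, and the difference was -0.28 (SE 0.090, 95% interval -0.48 to -0.071, adjusted p = 0.165 from limma), which was not called. The next probe sets had differences of -0.063 and -0.051.

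The most negative difference among the members, -0.31 (adjusted p = 0.519 from limma), belonged to the dimmest MAP9 probe set and depended on 1 array. Vector control replicate 1 stood at 6.98, against 6.13 and 6.10 in the other vector control arrays and 5.99 to 6.16 in CRB3-expressing cells. Without that array the difference was -0.023.

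STMN1, the tubulin-sequestering protein of dividing cells, had log2 values of 10.36, 10.35 and 10.33 in CRB3-expressing cells and 10.12, 10.30 and 10.29 in vector control cells. The groups did not overlap, but the difference of 0.11 (SE 0.070, 95% interval -0.051 to 0.27, adjusted p = 0.511 from limma) was not called and was 0.047 without vector control replicate 1. The second STMN1 probe set was dim, at means of 4.83 and 4.71. The probe set shared with MIR3917 had means of 8.81 and 8.74 and a difference of 0.072 (adjusted p = 0.656 from limma).

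MAPRE3, the plus-end binding protein EB3 that is abundant in neurons and muscle, had values of 7.28, 7.55 and 7.31 in CRB3-expressing cells and 7.40, 7.27 and 7.36 in vector control cells in its brightest probe set. The groups overlapped, with a difference of 0.039 (95% interval -0.15 to 0.23, adjusted p = 0.873 from limma). The differences of its 4 probe sets ranged from -0.10 to 0.039.

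**Figure D3:**
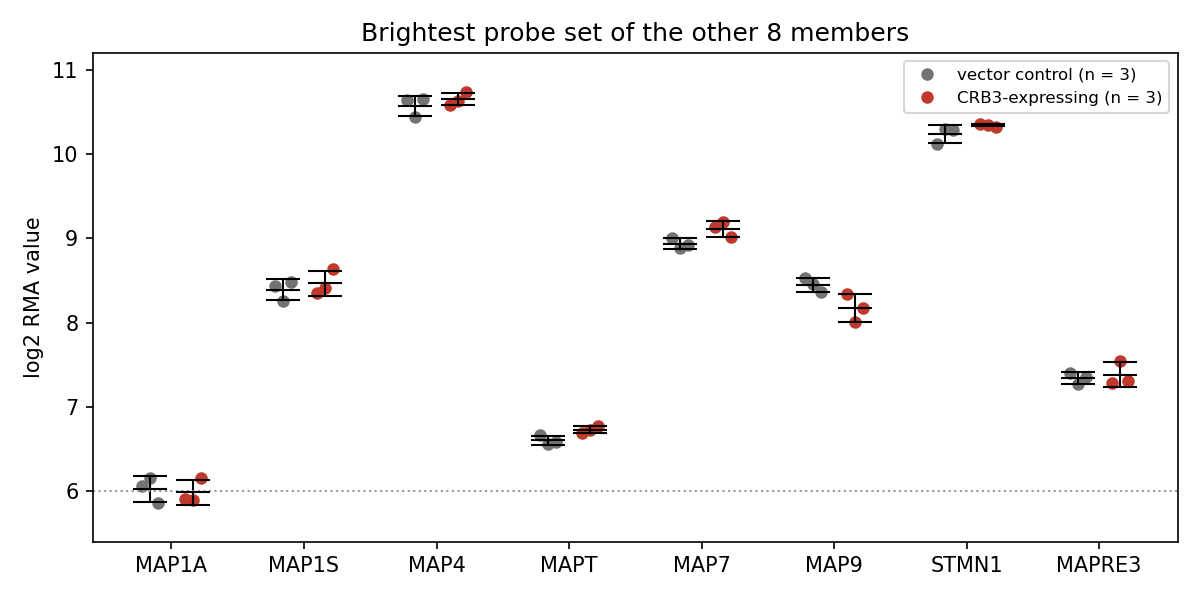
Log2 RMA value (y axis) of the brightest probe set of the 8 members other than MAP2 and MAP1B (x axis) by array, grey for vector control and red for CRB3. Each point is 1 array, bars are the mean and SD (n = 3), and the dotted line is a log2 value of 6. The groups lie close together in each gene, with the widest gap in MAP9, at 8.17 against 8.45. Values of different genes come from different probes and are not compared.

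The rest of the microtubule system was read through 6 lists, with 102 genes measured. By the brightest probe set, 1 of the 102 was called higher and 0 were called lower by limma, and without adjustment (limma p under 0.05) 14 were higher and 8 lower, against 10.4% and 8.39% of all genes. The median difference of the 102 genes was 0.021. The called gene was TUBA1A, an alpha-tubulin isotype abundant in developing neurons, among 16 tubulin isotypes. It went from 9.22 ± 0.091 in vector control cells to 9.99 ± 0.11 in CRB3-expressing cells (SD, n = 3), a difference of 0.78 (SE 0.079, adjusted p = 0.000726 from limma). Its only probe set can bind transcripts of close paralogs, and with an ordinary pooled variance it was not called (adjusted p = 0.0508 from limma).

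Alpha- and beta-tubulin together form the polymer. The brightest probe sets of the abundant alpha-tubulins TUBA1B and TUBA1C, named together with TUBB3 after their values were seen, had differences of -0.0081 and 0.0022, in both cases at levels of about 14.4 to 14.6. Whether such bright probe sets were saturated was not tested, so these differences say little about the genes. Among the beta-tubulins, TUBB2A, named after its values were seen, had a difference of 0.45 (SE 0.066, adjusted p = 0.00608 from limma), which is 1.37-fold and under the fold threshold. TUBB3, the beta-tubulin used as a neuronal marker, had differences of 0.11 and 0.13 in its 2 probe sets, neither of which was called. Both TUBB3 probe sets, and those given for TUBA1B and TUBA1C, are of the type that Affymetrix marks as able to cross-hybridize, so their values may include other tubulins.

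No gene was called by limma in the other 5 lists. The unadjusted counts of these lists stand beside shares of 10.4% higher and 8.39% lower over all genes (limma p under 0.05). Among 20 structural microtubule-associated proteins and stathmins outside the members, the smallest p belonged to STMN3, a neuronal stathmin, with a difference of -0.43 (adjusted p = 0.0627 from limma) and of -0.38 in its second probe set, and without adjustment (limma p under 0.05) 3 were higher and 1 lower. Among 17 plus-end tracking proteins, the linker CLIP2 had a difference of -0.46 (adjusted p = 0.0270 from limma), under the fold threshold, and 3 were higher and 3 lower without adjustment (limma p under 0.05). CLIP4, a relative of CLIP2 named after its values were seen, had 0.33 (adjusted p = 0.0272 from limma), also under the fold threshold.

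The minus-end and severing proteins, the tubulin modifying enzymes and the kinases of microtubule-associated proteins were the remaining lists. Of 10 minus-end and severing proteins, 0 were higher and 1 was lower without adjustment (limma p under 0.05). That was CAMSAP2, which caps and stabilizes free minus ends, with a difference of -0.19 (adjusted p = 0.292 from limma). Its other 2 probe sets had -0.22 and -0.27, and the groups did not overlap in any of the 3. Of 20 tubulin modifying enzymes, 2 were higher and 1 was lower without adjustment (limma p under 0.05), with TTLL11, a polyglutamylase, at -0.18 (adjusted p = 0.217 from limma). The other 2 TTLL11 probe sets had 0.00060 and 0.23, so they did not share its sign. Of 19 kinases, 3 were higher and 1 was lower by the same limit, with MAPK10, the neuronal JNK3, at 0.27 (adjusted p = 0.112 from limma). The other 2 MAPK10 probe sets, both dim, had 0.064 and -0.058 and overlapped between the groups.

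MAP2, MAPT, MAP1A and MAP1B are known best from neurons, so neuronal marker genes were read beside them. Of 19 such markers, 0 were called in either direction by limma. Without adjustment (limma p under 0.05) 2 were higher and 0 lower, against 10.4% and 8.39% of all genes. Their mean log2 value on an array was 5.71 to 5.74 in CRB3-expressing cells and 5.67 to 5.71 in vector control cells, and 11 of 19 had means under 6 in both groups. The smallest p was that of ENO2, a glycolytic enzyme of neurons, with means of 4.45 and 4.16 and a difference of 0.29 (adjusted p = 0.216 from limma). Named after their values were seen, the synaptic scaffold gene DLG4 had means of 6.56 and 6.48 and the neurofilament gene NEFL 4.05 and 4.08, neither of which was called.

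Of 10 markers of stromal, immune and endothelial cells, 0 were called by limma and 0 passed without adjustment (limma p under 0.05). The immune marker PTPRC, named after its values were seen, was at 4.19 with CRB3 and 4.16 with the vector, and COL1A2, the marker with the smallest p, at 5.53 and 5.63. Not all were dim, since 6 of the 10 had means under 6 in both groups. CD14 and COL1A1, also named after their values were seen, were brighter. CD14 was at 8.27 with CRB3 and 8.32 with the vector, and COL1A1 at 8.02 and 8.01. Of 8 mammary epithelial markers, 3 were called higher and 0 lower, against 1.43% and 0.465% of all genes. The largest differences were those of the basal keratin KRT14 (1.83) and the adherens junction protein CDH1 (1.10). The third called gene, the keratin KRT8, named after its values were seen, had 1.08. By adjusted p alone (limma, under 0.05) 5 of the 8 were higher and 1 was lower, against 666 and 351 of all 19775 genes. Not all rose, and 2 of the 8 had negative differences. ITGA6, named after its values were seen, had -0.36 (adjusted p = 0.0388 from limma), under the fold threshold and without overlap. KRT5 had -0.040. The mean of the 8 markers on an array was 12.13 to 12.24 in CRB3-expressing cells and 11.60 to 11.65 in vector control cells, and the groups did not overlap. Their part in the rise of MAP2 was not tested.

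**Figure D4:**
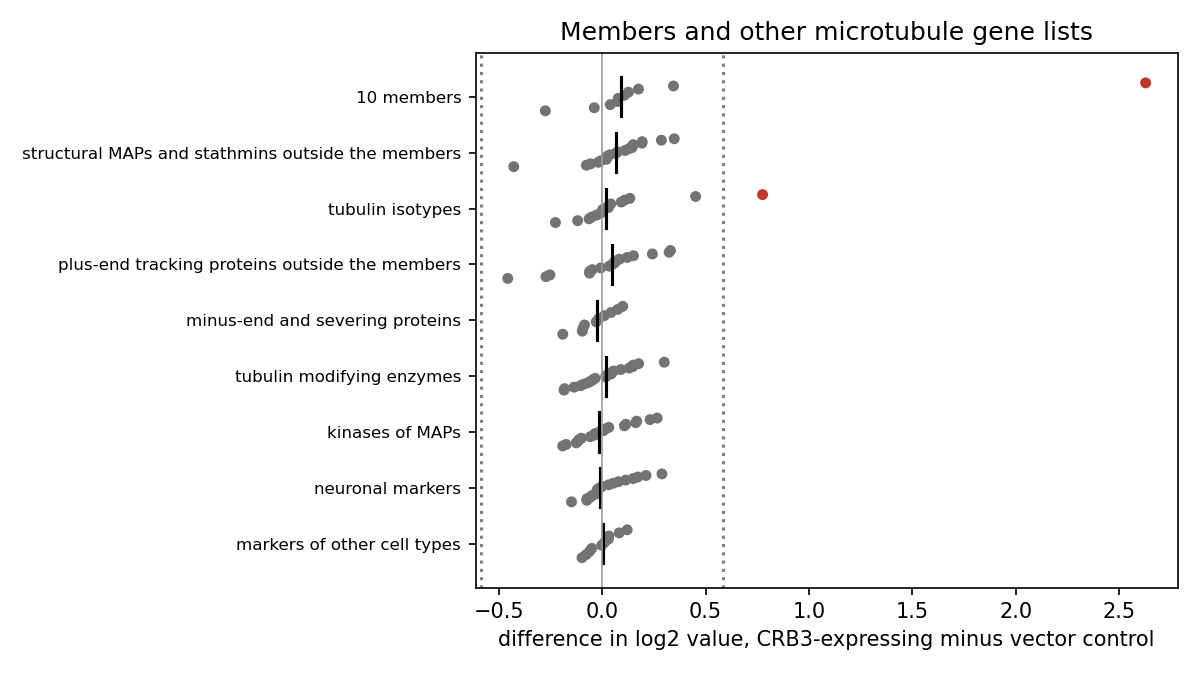
Log2 difference between CRB3-expressing and vector control means (x axis) of the brightest probe set of each gene in the 10 members, the 6 microtubule lists and the lists of neuronal and other cell type markers (y axis). Points stand for genes, in red if called and in grey if not, black bars are medians and dotted lines mark 1.5-fold. MAP2 at 2.63 and TUBA1A at 0.78 are the called genes plotted. The mammary epithelial markers, 3 of which were called higher, are not plotted.

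The genes whose values followed the brighter MAP2 probe set most closely over the 6 arrays were TAGLN, AZGP1 and CCDC80, with Pearson's r of 0.9998, 0.9993 and 0.9993 among 12306 genes with a mean of at least 6. TAGLN encodes an actin-binding protein of contractile cells, AZGP1 a secreted glycoprotein and CCDC80 an extracellular matrix protein. Their differences were 1.498, 2.97 and 2.42. These values are a description: the 6 arrays form 2 groups, r mostly reflects the step between them, and MAP2 was chosen on that step. AZGP1 reached the required mean only through the CRB3-expressing arrays, with means of 7.50 and 4.53.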

How the data were processed

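Total RNA of 3 CRB3-expressing and 3 vector control samples was hybridized to Human Genome U133 Plus 2.0 arrays. The authors corrected background and normalized the arrays by Robust Multichip Average (RMA) in R. The deposited log2 values, 1 for each probe set on each array, entered the tests as they stand. Software versions are not given in the sources used here. Groups came from the sample titles.

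The group difference was fitted in R 4.3.3 by limma 3.58.1, using lmFit and eBayes without covariates, with Benjamini-Hochberg adjustment over 54613 probe sets, after leaving out 62 control probe sets. Calls required both a fold change over 1.5 and an adjusted p below 0.05, the criteria of the methods. Gene symbols came from the platform annotation, checked through Entrez identifiers against RefSeq (GRCh38.p14), with 0 symbols changed and 54 probe sets without a match. The fit included 1801 probe sets that carry several symbols and 11721 that carry none, and no gene was read from them. For each gene, the brightest (highest mean) of its own probe sets was used. The precision is limited by the number of arrays.

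The members, lists and tests were chosen with earlier results of these data known. Named genes were all members, CRB3, in each list up to 2 highest and 2 lowest called genes or else the gene with the smallest p, and the 3 genes most correlated with MAP2. Any other gene was picked once its values were known, as stated beside it. Some listed genes were not analysed here, and the counts give those that were. The fit was tested on simulated data. Alternatives were the replicate number as a block, other variance models, further normalization, a filter on dim probe sets (a value of at least 6 on at least 3 arrays), leaving out each array, array weights, other fold thresholds, leaving out shared probe sets and averaging the probe sets of each gene.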

Additional observations from a re-analysis of the deposited data

How the results depend on the processing

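Of the 9 members other than MAP2, none was called as a gene under the alternatives run. MAP2 was chosen on this contrast, so nothing is read from its own calls. Of 134 counts recomputed under alternatives, 121 stayed within 1.5 times. They include the counts of members called higher, which rest largely on MAP2, and counts that were 0 in the main fit. Nothing is therefore read from that share. With an ordinary pooled variance, 174 genes were called higher and 46 lower in place of 283 and 92, 1 probe set of the members was called higher in place of 3 (only MAP2), and 0 genes of the microtubule lists were in place of 1. With no fold threshold, 666 genes were higher and 351 lower, and the microtubule lists had 3 higher and 1 lower. Above a 2-fold change, 111 genes were higher and 20 lower, and 0 of the microtubule lists were. With shared probe sets left out 0 genes of the microtubule lists were called, since TUBA1A has no other probe set. With the mean over the probe sets of a gene, 59 genes were lower. Apart from the fold thresholds and the left-out probe sets, the cause was not tested.

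The differences of MAP1A, MAP1S, MAP4, MAPT and MAPRE3, none of them called, changed sign under at least 1 alternative. The brighter MAP2 probe set ranged from 2.57 to 2.67 when single arrays were left out, and the called MAP1B probe set from 0.74 to 0.94. The filter on dim probe sets kept 9 members and 23 of their probe sets and removed MAP1B, while MAP2 passed it only through the CRB3-expressing arrays. With the replicate block the calls were the same (3 probe sets of members higher), and TUBA1A had an adjusted p = 0.00522 from limma. Replicate numbers share only a label: same-numbered deviations correlated at -0.085, 0.064 and 0.029, and 2 of 6 samples correlated best with their own number. Dim levels limit what can be said of MAP1B, MAP1A and most MAPT probe sets.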
